A study of Homo sapiens with 6 samples.

Results

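ARMT1 and 9 genes that attach or remove ADP-ribose were followed in HCT116 cells, an established human colorectal cancer line, with and without lentiviral expression of cytoglobin (CYGB). The members were taken by symbol, as 10 of the 40173 genes and 93 of the 151453 transcripts with a gene in the deposited table, and the rows of each gene were summed. ARMT1 was chosen by its CYGB against MOCK difference in these same libraries, so its values are a description and carry no test. It had the last place among the 11 genes with an adjusted p under 0.05 in the fit over all genes (adjusted p = 0.0490, edgeR quasi-likelihood test), after AGAP7P (log2 fold change -8.22, adjusted p = 0.0414), and the next gene outside was TRIM35 (log2 fold change -3.49, adjusted p = 0.153). The adjusted p of ARMT1 shows how near it was to this limit and is no support for its difference.

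RNA of 3 MOCK libraries, labelled wild type, was compared with that of 3 CYGB libraries, in which the CYGB coding region fused with FLAG was expressed. Both groups were HCT116 cells at passages 15 to 20 that had received virus at a multiplicity of 20 and had then been selected with puromycin, so each group is a selected cell population and differences between the populations cannot be told apart from the effect of CYGB. The series describes the 3 libraries of a group as biological replicates. The libraries held 58138393 to 66035266 counts, of which 18.6% to 19.5% fell on transcripts without a gene. CYGB itself had 10, 28 and 34 counts in MOCK and 34935, 27681 and 32333 in CYGB, matching the labels. Of 10 epithelial markers 9 were in the table, with a summed level of 4128 to 4604 CPM (counts scaled to a fixed library total) in MOCK and 4200 to 4490 in CYGB, although CDH17, VIL1 and CLDN4 reached at most 0.476, 0.787 and 1.65 CPM. Most of this sum was KRT8 and KRT19. EPCAM had 159 CPM in CYGB 3, the CYGB library with the lowest ARMT1, and 307 to 341 in the other libraries, and its part in the ARMT1 level was not tested. VIL1 was higher in all CYGB libraries (log2 fold change 0.89, adjusted p = 0.963, edgeR). It was the only 1 of the 9 whose groups did not overlap (11.1%, against 11.0% of all genes tested). The log2 fold change was above 0 for 4 of the 9, and was -1.76 for CLDN4 and -0.33 for EPCAM. Markers of other cell types summed to 66.2 to 73.3 CPM in MOCK and 58.5 to 81.5 in CYGB, mostly COL1A1 and CD68. Of these 10 markers 5 were below the expression filter, among them the T cell marker CD3E and the endothelial marker PECAM1. Of the 5 tested, the groups did not overlap for ACTA2 alone, which was lower in CYGB (log2 fold change -0.84, adjusted p = 0.963, edgeR). In RNA of bulk cells, a lower share of cells that express a gene and less RNA per cell cannot be told apart.

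ADP-ribosylation is a protein modification made from NAD. PARP1 and PARP2 sense DNA breaks and build chains of ADP-ribose, PARP3 also acts at breaks but adds single units, and the tankyrase TNKS modifies the Wnt pathway scaffold axin among others. PARG cuts the chains, ADPRH frees arginine, and the macrodomain hydrolases OARD1, MACROD1 and MACROD2 remove the last unit from acidic residues. ARMT1, acidic residue methyltransferase 1, was named for methylation of glutamate side chains in PCNA, the sliding clamp of DNA replication, and is neither a transferase nor a hydrolase of ADP-ribose by name.

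ARMT1 (ENSG00000146476) lies on the plus strand at chr6:151452258-151470101 (GRCh38) and has 4 annotated transcripts. They differ in their first exon, in where they end and in whether they hold the second exon of the main transcript, ARMT1-201 (ENST00000367294), at chr6:151454548-151454653. That exon is coding, and its 106 bases are not a multiple of a codon. ARMT1-201 has 5 exons and 441 codons. ARMT1-203 (ENST00000494826) and ARMT1-204 (ENST00000545879) go from the first exon straight to the third. The annotation gives ARMT1-203 a reading frame of 56 codons and the class nonsense-mediated decay, and gives ARMT1-204 a frame of 322 codons that begins in the third exon. The exon and the junctions are printed because they tell ARMT1-201 from the transcripts without the second exon, with the bases of that exon in capitals in the junctions. They do not tell ARMT1-203 from ARMT1-204.
Exon 2: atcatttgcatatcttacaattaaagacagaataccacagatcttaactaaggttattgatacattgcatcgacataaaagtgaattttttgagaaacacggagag
Exon 1 to exon 2: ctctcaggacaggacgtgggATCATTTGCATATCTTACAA
Exon 2 to exon 3: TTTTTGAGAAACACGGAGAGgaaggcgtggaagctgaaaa
Exon 1 to exon 3: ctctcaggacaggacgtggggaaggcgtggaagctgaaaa

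ARMT1 was higher in all CYGB libraries. It had 1067, 1183 and 1236 counts in MOCK 1, 2 and 3 and 3484, 3426 and 2811 in CYGB 1, 2 and 3. As CPM, scaled by the TMM library sizes, these were 22.6, 22.4 and 24.0 in MOCK and 69.0, 67.4 and 53.5 in CYGB. The groups did not overlap, and CYGB 3 was the lowest of the CYGB libraries. The MOCK mean was 23.0 ± 0.885 CPM, against 63.3 ± 8.50 with CYGB (SD, n = 3 each). This is 2.75-fold, with a fitted log2 fold change of 1.46 and a standard error (SE) of 0.13.

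Levels of different genes were compared per length, as TPM, the count per base of annotated transcript scaled to a fixed total. In MOCK, ARMT1 ranked above ADPRH and MACROD2 and below the other members, at 18.4 ± 0.796 TPM, and its libraries (17.8 to 19.3) overlapped those of OARD1 (19.1 to 22.3), the gene above it. ADPRH, the gene below, was at 2.31 to 3.07 TPM and did not overlap it. In CYGB, ARMT1 ranked next after PARP1 and PARP2, at 49.2 ± 8.12 TPM. Its CYGB libraries (39.8 to 53.9 TPM) overlapped neither those of PARP2 above (76.1 to 84.4) nor those of MACROD1 below (29.7 to 32.2).

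**Figure D1:**
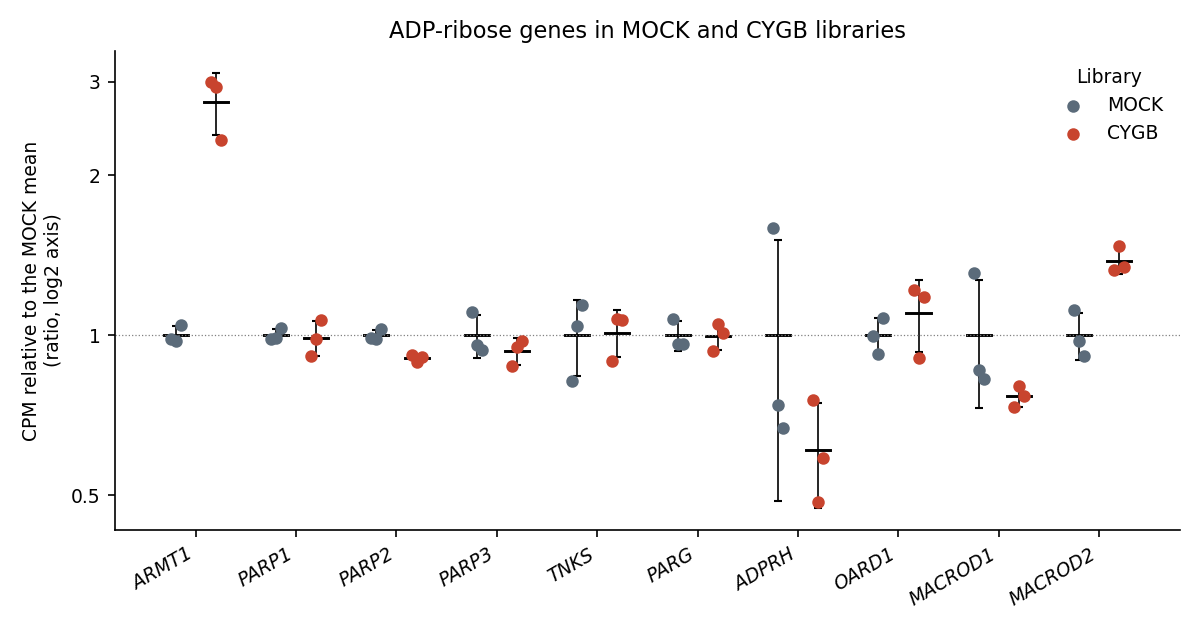
CPM of the 10 members in each library, divided by the MOCK mean of the gene (log2 axis); points are libraries, horizontal bars the mean and whiskers the SD of 3 libraries. The CYGB libraries of ARMT1 sit clear of MOCK, at 53.5 to 69.0 against 22.4 to 24.0 CPM, and the widest MOCK whiskers are those of ADPRH and MACROD1, where MOCK 1 is high.

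Most of the difference lay in the main transcript. ARMT1-201 had 960, 1103 and 1205 counts in MOCK and 3453, 3396 and 2806 in CYGB, a log2 fold change of 1.56 (SE 0.18). Its share of the gene's counts was 90.0%, 93.2% and 97.5% in MOCK and 99.1%, 99.1% and 99.8% in CYGB. The transcripts without the second exon had fewer counts in CYGB. ARMT1-203 was assigned 18, 19 and 20 counts in MOCK and none in any CYGB library. With CYGB set to a floor of 3 counts over the group, this is at least 19.1-fold lower in assigned counts. ARMT1-203 passed the expression filter only through MOCK, so this fold is no support for a loss of the transcript. ARMT1-204 had 71, 54 and 1 counts in MOCK and 0, 2 and 2 in CYGB, so its MOCK level rested on 2 libraries. ARMT1-202 (ENST00000483931), a processed transcript that holds the second exon, had 18, 7 and 10 counts in MOCK and 31, 28 and 3 in CYGB, and these overlapped.

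Together, the transcripts that skip the second exon took 89 of 1067 counts in MOCK 1, a share of 8.34% (95% Wilson interval 6.83% to 10.2%). The share was 6.17% (4.94% to 7.69%) in MOCK 2 and 1.70% (1.11% to 2.58%) in MOCK 3. In CYGB 1 it was 0 of 3484 counts, which allows a share of up to 0.0861% when the floor is 3 counts of the total, with a Wilson upper limit of 0.110%. CYGB 2 had 0.0584% (0.0160% to 0.213%) and CYGB 3 had 0.0711% (0.0195% to 0.259%). All MOCK shares were above all CYGB shares, but MOCK libraries also differed among themselves, with intervals of MOCK 3 below those of MOCK 1 and 2. These intervals and the floor cover counting error only. The deposited table assigns reads among transcripts that share most of their sequence: of the 150-base windows along ARMT1-203, 0 of 563 are absent from the other ARMT1 transcripts, and 77 of 2346 (3.28%) are in ARMT1-204 and 153 of 2427 (6.30%) in ARMT1-201. The split between ARMT1-203 and the other ARMT1 transcripts therefore rests on how reads were assigned. The part of this assignment in the shares was not tested.

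**Figure D2:**
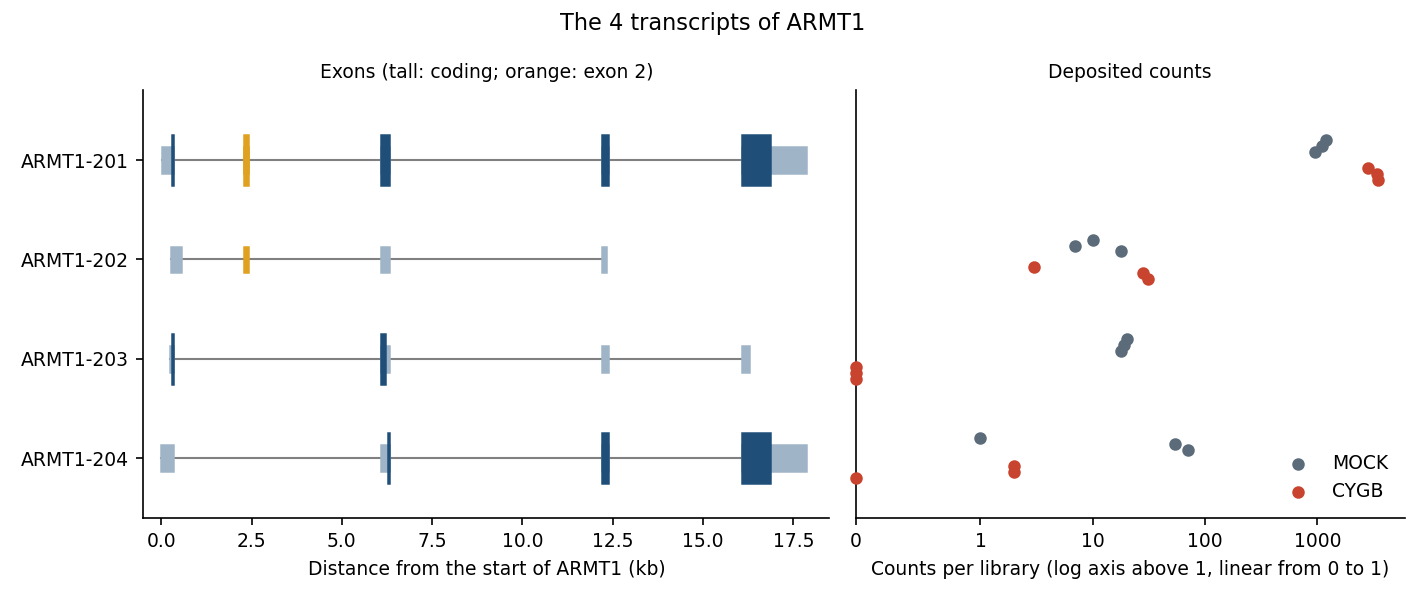
Left, exons of the 4 ARMT1 transcripts by distance from the start of the gene (kb), tall boxes coding and orange the second exon; right, deposited counts in each library (log axis above 1, linear from 0 to 1). ARMT1-201 lies at 960 to 1205 counts in MOCK and 2806 to 3453 in CYGB, while ARMT1-203, without the orange exon, lies at 18 to 20 in MOCK and at 0 in CYGB.

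The gene nearest to ARMT1 is RMND1, a mitochondrial translation factor gene on the opposite strand, whose first annotated base lies 0.077 kb before that of ARMT1. The 76 bases between them, at chr6:151452182-151452257 of GRCh38 and read on the plus strand, come from the RefSeq promoter table. They are shown because the genes start at its ends. The capitals mark CACGTG, the E-box hexamer, which reads the same on both strands.
Between RMND1 and ARMT1: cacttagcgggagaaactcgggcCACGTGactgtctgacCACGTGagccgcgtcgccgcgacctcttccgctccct
The hexamer occurs 2 times, without overlap. Of 35116 promoter windows of the same table, cut to 76 bases at the same distance from the start, 2.05% held it at least once and 0.0740% at least 2 times. In the whole windows of 300 bases these shares were 7.26% and 0.664%. The match is a description of the letters and no binding was measured. No other motif was counted, and the shares are no test of the hexamer in this stretch, which is 65.8% G and C. The promoter table matched 8 of the 10 members by symbol.

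RMND1 showed no difference of the size seen for ARMT1. Its CPM was 28.3, 25.6 and 24.8 in MOCK and 24.0, 25.9 and 24.4 in CYGB. The groups overlapped, with a log2 fold change of -0.08 (SE 0.11, 95% interval -0.35 to 0.19, adjusted p = 0.971, edgeR). None of the 5 genes beside ARMT1 passed the threshold of the study. This is an unadjusted p of at most 0.01 with a ratio of at least 2 or at most 0.5, applied here to the edgeR fit. It was passed by 113 of the 19987 genes tested (0.565%). The paper reports far more changed mRNAs at this threshold from its own analysis, so a gene not called here may be called there. At an unadjusted p under 0.05, edgeR called 0 of the 5, against 4.54% of all genes tested. DESeq2 also called 0, and its share of all genes is not given here. AKAP12, a kinase anchoring scaffold, was high in every library (3058 to 3318 CPM, log2 fold change 0.01). ZBTB2, a zinc finger repressor, was at 8.53 to 15.9 CPM in MOCK and 13.2 to 17.5 in CYGB. CCDC170 and the oestrogen receptor gene ESR1, on the far side, were at 0 to 0.335 and 0 to 0.662 CPM. Their 95% intervals of the log2 fold change, -2.42 to 2.87 and -2.51 to 2.70, show that a difference was not detectable at this depth.

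**Figure D3:**
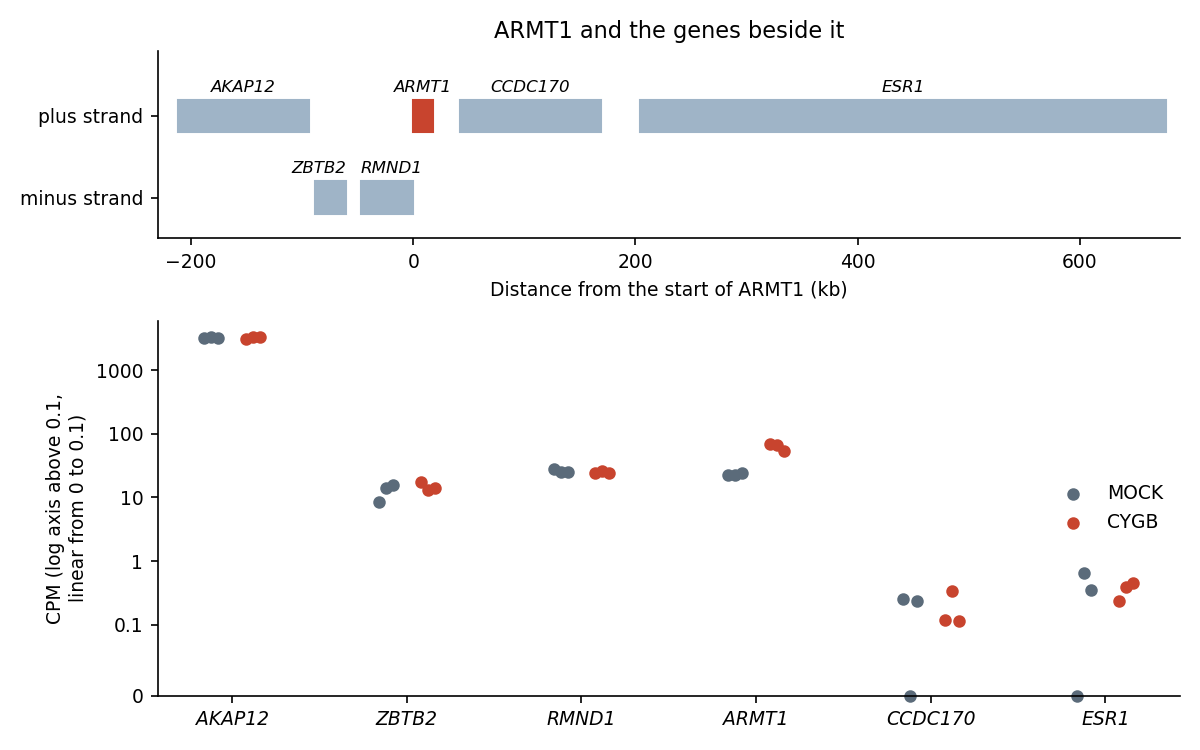
Top, ARMT1 and 5 genes beside it by distance from the start of ARMT1 (kb) and strand; bottom, CPM of each gene in each library (log axis above 0.1, linear from 0 to 0.1). The points of the 2 groups part for ARMT1 alone among the 6 genes, and RMND1 lies at 24.0 to 28.3 CPM in all libraries.

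Among the other members, no writer of ADP-ribose passed a threshold. PARP1, at chr1:226360691-226408079, was the most abundant member in both groups (286 ± 15.6 TPM in MOCK and 289 ± 19.9 in CYGB). It had 512, 516 and 537 CPM in MOCK and 477, 512 and 557 in CYGB. The log2 fold change was -0.02 (SE 0.08, 95% interval -0.20 to 0.17, adjusted p = 0.995, edgeR). PARP2, at chr14:20343582-20357905, had 76.1, 75.7 and 79.0 CPM in MOCK and 70.6, 68.6 and 69.9 in CYGB. All CYGB libraries of PARP2 lay below all MOCK libraries, by a log2 fold change of -0.14 that did not pass the test (SE 0.07, 95% interval -0.32 to 0.04, adjusted p = 0.963). Its most abundant transcript, PARP2-202 (ENST00000429687), overlapped between groups, with 2316, 2491 and 2811 counts in MOCK and 2460, 2379 and 2525 in CYGB. PARP2-204 (ENST00000527915) did not overlap, with 966, 1165 and 1019 in MOCK and 803, 829 and 870 in CYGB.

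PARP3, at chr3:51942345-51948867, had 24.2, 20.9 and 20.5 CPM in MOCK and 19.1, 20.7 and 21.3 in CYGB, which overlapped (log2 fold change -0.10, 95% interval -0.40 to 0.20, adjusted p = 0.964, edgeR). TNKS, at chr8:9555914-9782346, had 91.7, 116 and 127 CPM in MOCK and 99.8, 120 and 119 in CYGB. The first library of each group was the lowest for TNKS, and the groups overlapped (log2 fold change 0.02, 95% interval -0.34 to 0.37, adjusted p = 0.998).

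The erasers differed more in level than between groups. PARG, at chr10:49818279-49970203, had 45.9, 41.1 and 41.1 CPM in MOCK and 39.8, 44.7 and 43.1 in CYGB, which overlapped. Its log2 fold change was -0.01 (SE 0.10, 95% interval -0.26 to 0.25, adjusted p = 0.999, edgeR). The pseudogene PARGP1, which can share reads with PARG, held 2.43% to 3.90% of the counts of both. OARD1, at chr6:41033627-41097787, had 17.9, 16.5 and 19.3 CPM in MOCK and 21.8, 16.2 and 21.1 in CYGB. CYGB 2 was the lowest library of OARD1 and the groups overlapped (log2 fold change 0.14, 95% interval -0.25 to 0.52, adjusted p = 0.964).

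ADPRH, at chr3:119579268-119589945, was low, with 244, 127 and 112 counts in MOCK and 124, 80 and 100 in CYGB. MOCK 1 was high and the groups overlapped, with a log2 fold change of -0.71 and a wide interval (95% interval -1.67 to 0.24, adjusted p = 0.963, edgeR). Without MOCK 1 the log2 fold change of ADPRH was -0.21. MACROD2, at chr20:13995369-16053197, was the least abundant member, at 1.38 ± 0.211 TPM in MOCK and 1.86 ± 0.233 in CYGB. It had 47, 46 and 42 counts in MOCK and 60, 67 and 63 in CYGB. All CYGB libraries of MACROD2 lay above all MOCK libraries, and the log2 fold change of 0.47 did not pass the test (SE 0.20, 95% interval -0.02 to 0.96, adjusted p = 0.963). Most of its counts fell on a short processed transcript, MACROD2-209 (ENST00000483997), with 43, 40 and 32 counts in MOCK and 51, 45 and 45 in CYGB. The long coding transcript MACROD2-201 (ENST00000217246) had 4, 6 and 10 in MOCK and 6, 20 and 8 in CYGB.

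MACROD1, at chr11:63998558-64166106, had 26.3, 17.2 and 16.6 CPM in MOCK and 14.7, 16.1 and 15.4 in CYGB. The CYGB libraries lay below MOCK and MOCK 1 stood high, with a log2 fold change of -0.38 that did not pass the test (SE 0.21, 95% interval -0.88 to 0.12, adjusted p = 0.963, edgeR). Without MOCK 1 it was -0.14. Transcripts other than the main coding form held most of the spread. MACROD1-208 (ENST00000545464), with a retained intron, had 427, 267 and 90 counts in MOCK and 48, 103 and 66 in CYGB, and MOCK 3 overlapped CYGB. MACROD1-205 (ENST00000542105), also with a retained intron, had 71, 63 and 81 in MOCK and 51, 55 and 55 in CYGB, which did not overlap. MACROD1-203 (ENST00000538595) had 67, 62 and 47 in MOCK and 23, 18 and 58 in CYGB, which did. The coding transcript MACROD1-201 (ENST00000255681) had 641, 502 and 605 in MOCK and 591, 633 and 607 in CYGB, with a log2 fold change of 0.05. OTUB1 overlaps MACROD1 on the other strand and was at 97.9 to 129 CPM. The strand used in counting is not given in the sources used here, and the part of OTUB1 reads in MACROD1 was not tested.

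Of the 9 other members, 0 passed the threshold of the study and 0 had an adjusted p under 0.05 (0.0550% of all genes tested). At an unadjusted p under 0.05, edgeR called 0, where it called 4.54% of all genes. DESeq2 also called 0, and its share of all genes is not given here, so that count has no background. The groups did not overlap for 3 of 9 (33.3%), 1 higher and 2 lower in CYGB, against 11.0% of all genes tested. The median log2 fold change of the 9 was -0.02, beside -0.01 over all genes. For 8 of the 9 the 95% interval lay between ratios of 0.5 and 2, and ADPRH was the exception.

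At the level of transcripts the other members had 89, of which 9 had no count in any library and 46 were tested. None of the 46 passed the threshold of the study in edgeR, which 1.02% of the 66609 transcripts tested passed. In edgeR 1 of them, MACROD1-208, had an unadjusted p under 0.05, against 3.78% of all transcripts. DESeq2 gave 2, MACROD1-208 and PARP2-204, and its share over all transcripts is not given here, so this count has no background to be read against. Single transcripts varied between libraries of the same group, in PARP3 while the sum of the gene changed little. PARP3-201 (ENST00000398755) had 776, 304 and 788 counts in MOCK and 811, 475 and 219 in CYGB. PARP3-202 (ENST00000417220) was near 0 where PARP3-201 was high, with 0, 422 and 22 in MOCK and 17, 0 and 286 in CYGB. The PARP3 gene sum stayed between 964 and 1143. Of the 150-base windows, 6.72% in PARP3-201 and 6.67% in PARP3-202 are absent from the other transcripts of the gene. In ADPRH the sum moved with a transcript: ADPRH-204 (ENST00000478399) had 146 counts in MOCK 1 and 7 to 24 elsewhere, and the gene had 244 in MOCK 1 and 80 to 127 elsewhere. In PARG, the transcript classed as nonsense-mediated decay, PARG-206 (ENST00000614063), was assigned most counts in every library, 1426 to 1719, and 70.9% to 77.1% of the gene. Of its windows 145 of 3324 (4.36%) are absent from the other PARG transcripts, and 0 of 3048 are in the coding PARG-207 (ENST00000616448). The split between these 2 therefore rests on how reads were assigned, which was not tested.

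**Figure D4:**
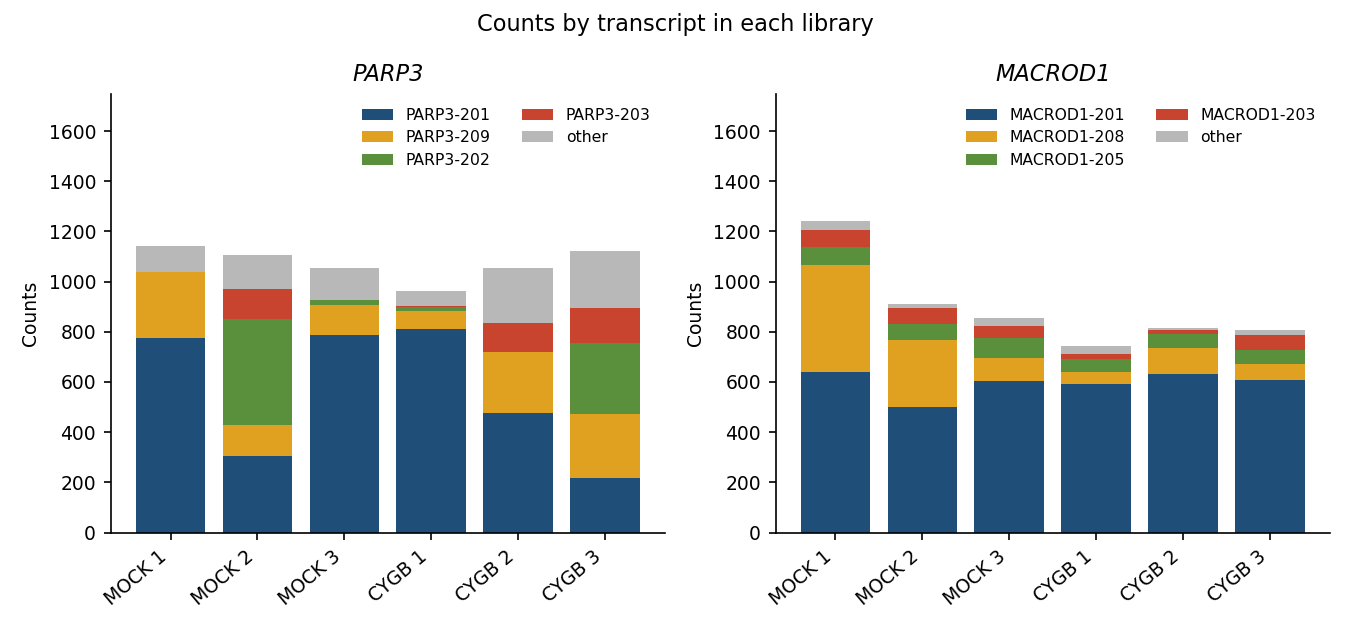
Deposited counts of PARP3 and MACROD1 in each library, stacked by transcript (the 4 with the highest mean level and the rest in grey). PARP3 sums to 964 to 1143 while PARP3-201 ranges from 219 to 811; in MACROD1 the orange MACROD1-208 ranges from 48 in CYGB 1 to 427 in MOCK 1 and the blue MACROD1-201 stays at 502 to 641.

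The rest of the pathway was read from lists of 58 symbols, of which 56 were in the table and 47 were tested. ADPRS and MACROH2A1 were absent only as names, since their genes stand in the lists as ADPRHL2 and H2AFY, which were tested. None rose and none fell past the threshold of the study. At an unadjusted p under 0.05 edgeR called 0, against 4.54% of all genes tested. DESeq2 called 1, SIRT6 (log2 fold change 0.25, DESeq2 adjusted p = 0.716). The share of all genes that DESeq2 called at this p is not given here, so its count has no background to be read against. The groups did not overlap for 8 of 47 (17.0%), against 11.0% of all genes tested, and no gene among them passed after adjustment. In CYGB, ZC3HAV1, SIRT6, ADPRHL1 and TIMELESS lay higher, with log2 fold changes of 0.13, 0.24, 0.37 and 0.11. TNKS2, TDP1, NADSYN1 and NADK2 lay lower, at -0.60, -0.20, -0.22 and -0.17. The median log2 fold change of the 47 was 0.06, with a range of -0.60 to 0.57, and for 37 of the 47 the 95% interval lay between ratios of 0.5 and 2.

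Of the other writers 15 of 19 were tested, with a median log2 fold change of 0.03. TNKS2, the second tankyrase, had 81.2, 76.1 and 87.3 CPM in MOCK and 64.5, 27.3 and 69.0 in CYGB. Its CYGB libraries lay below MOCK and CYGB 2 was the lowest of them, and the log2 fold change of -0.60 did not pass the test (SE 0.34, adjusted p = 0.963, edgeR). PARP4, the vault particle PARP, and ZC3HAV1, an antiviral zinc finger protein without transferase activity, had the highest levels of the list, with 76.2 ± 4.72 and 56.0 ± 2.46 TPM in MOCK and 80.9 ± 3.25 and 64.6 ± 6.36 in CYGB. Of the other erasers 7 were tested, with a median log2 fold change of 0.25. The highest were NUDT5, an ADP-ribose pyrophosphatase (60.2 ± 6.97 TPM in MOCK, 62.8 ± 2.64 in CYGB), and ADPRHL2, the serine ADP-ribose hydrolase (40.9 ± 10.2 and 49.9 ± 5.41).

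Of the cofactors, readers and repair partners 13 of the 14 in the table were tested, with a median log2 fold change of 0.10. PCNA, the protein ARMT1 was named for modifying, had 431, 450 and 474 CPM in MOCK and 457, 491 and 464 in CYGB. These overlapped, with a log2 fold change of 0.06 (SE 0.07, adjusted p = 0.964, edgeR). H2AFY, which encodes the macrodomain histone macroH2A, varied more between libraries, from 135 to 213 CPM in MOCK and 129 to 178 in CYGB. Of the genes of NAD synthesis and use 12 of 16 were tested, with a median of -0.06. NAMPT, which makes NAD from nicotinamide, had 251 to 269 CPM in MOCK and 240 to 267 in CYGB (log2 fold change -0.04, adjusted p = 0.981). NAPRT, which starts from nicotinic acid, had 55.2 to 69.0 CPM in MOCK and 51.9 to 57.9 in CYGB (log2 fold change -0.24, adjusted p = 0.963).

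Of the 490 transcripts of these lists 243 were tested, and 1 rose and 1 fell past the threshold of the study in edgeR. This share of 0.823% is near the 1.02% of all transcripts tested, and neither had an adjusted p under 0.05. LIG3-208 (ENST00000586407), a processed transcript of the DNA ligase gene LIG3, had no count in MOCK and 21, 13 and 14 in CYGB (adjusted p = 0.408). NAMPT-213 (ENST00000491027), with a retained intron, had 26, 23 and 22 in MOCK and 0, 2 and 3 in CYGB (adjusted p = 0.728). Both transcripts passed the expression filter only through the group where they were high, so these calls are no support for a difference. LIG3-208 made up 1.02% to 1.24% of the LIG3 counts in CYGB, and NAMPT-213 made up 0.162% to 0.219% of the NAMPT counts in MOCK.

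**Figure D5:**
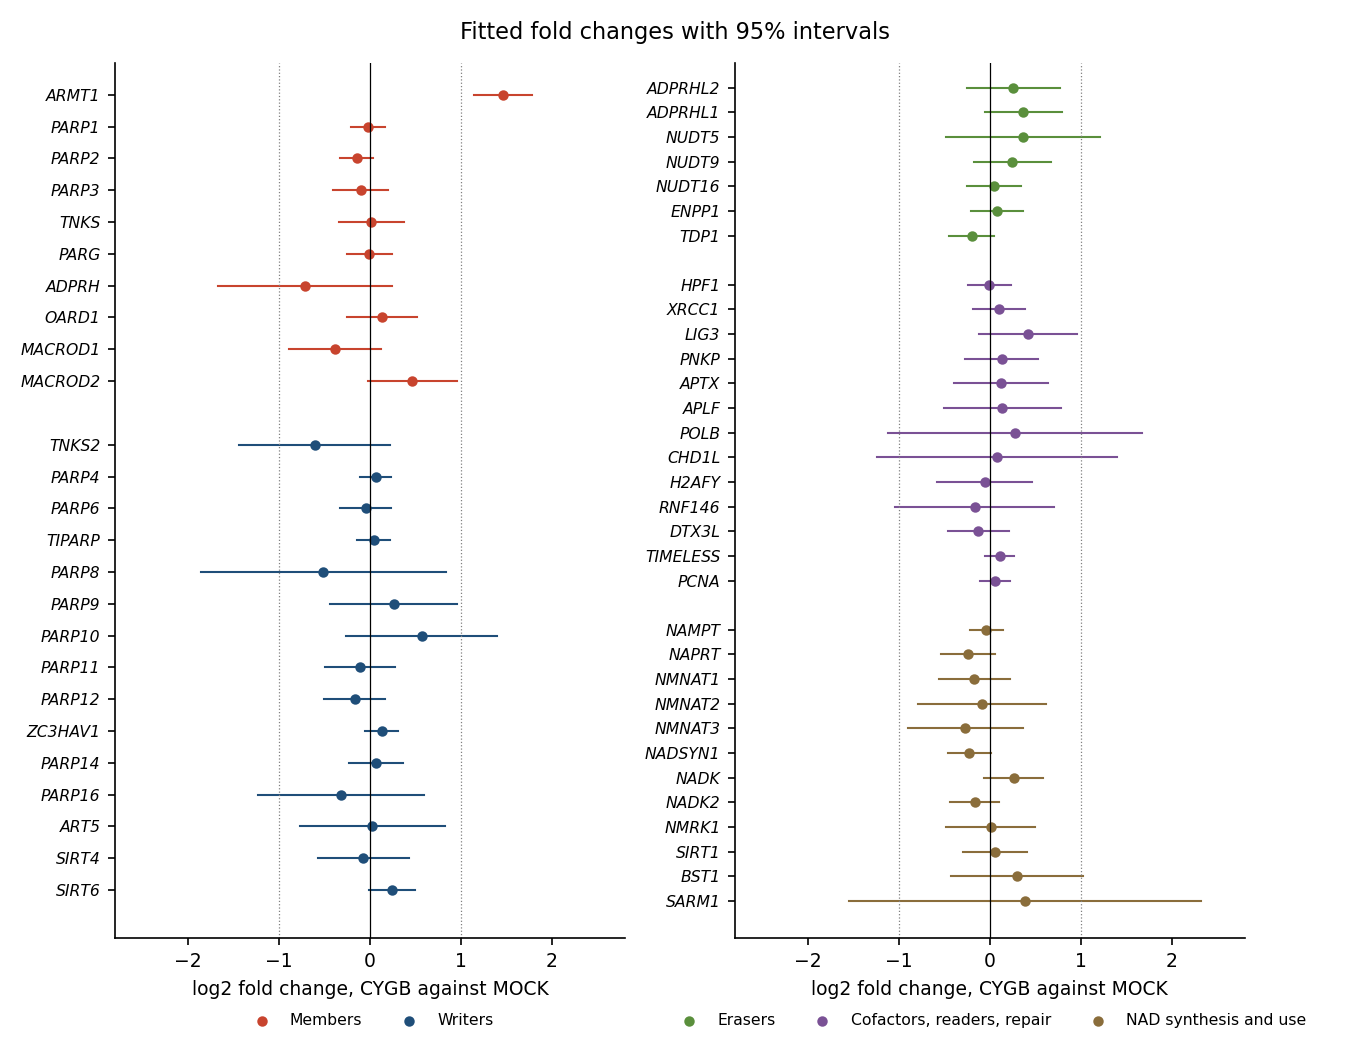
Log2 fold change of CYGB against MOCK (dots) with 95% intervals (lines) for the 10 members and the 47 tested genes of the 4 lists; dotted lines mark ratios of 0.5 and 2. ARMT1 lies at 1.46, and since it was chosen for this contrast its dot and interval are a description and no test. The remaining dots lie between -0.71 and 0.57.

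The genes whose pattern was most like ARMT1 were ranked among 9946 genes that averaged 10 CPM or more, over the 6 libraries of 2 groups, as a description. Over all libraries Pearson r of log2 CPM was highest for COCH (0.987), CYGB itself (0.985) and MTUS1 (0.984). This r takes in the split between the groups, which was of unequal size: COCH differed little, from 13.5 to 18.0 CPM on average, and MTUS1 went from 9.89 to 168 CPM. With the mean of each group subtracted, r was highest for SLF1 (0.9996), OAT (0.999) and CNOT7 (0.998). They were the highest of 9946 genes, each over 6 libraries with 2 group means taken out. A high r here is therefore no sign of shared control. SLF1, OAT and CNOT7 barely differed between groups (log2 fold changes 0.0004, -0.0058 and -0.0021), and each was lowest in CYGB 3. CNOT7 had 45.7, 45.5 and 48.6 CPM in MOCK and 51.6, 50.6 and 37.4 in CYGB. It shared with ARMT1 the highest MOCK value in MOCK 3 and the lowest CYGB value in CYGB 3.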

How the data were processed

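The deposited table holds raw read counts per transcript that the authors made from paired reads of HCT116 RNA. The processing notes of the submitters name HISAT, HISAT2, DESeq2 and hg19, and the counting tool is not given in the sources used here. Although hg19 is named, 99.6% of the annotated transcripts, and 93 of 93 of the members, have the positions of GENCODE 29 on GRCh38, which is the build printed. Rows without a gene (21225 of 172678) entered neither the library sizes nor the tests.

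Counts were summed per gene ID, filtered with filterByExpr (minimum count 10), scaled with TMM and tested with edgeR 4.0.16 in R 4.3.3 (glmQLFit and glmQLFTest, Benjamini-Hochberg adjustment over all 19987 genes or 66609 transcripts, MOCK and CYGB, 3 libraries each). The test was checked on simulated counts with large changes planted in the more abundant genes and transcripts. This check does not cover small changes or genes of low level. Standard errors are the log2 fold change over the root of F, and intervals use its degrees of freedom. Alternatives were DESeq2 1.42.0 with its size factors, other filters, a replicate block, leaving out each library, keeping rows without a gene, the most abundant transcript, and PARG with PARGP1. At 3 libraries a group, the biological coefficient of variation was 36.6% for genes and 78.9% for transcripts.

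Named genes were all members, per list the 2 with the highest level and any past the threshold of the study or with groups apart and a log2 fold change of at least 0.5 in size, all genes beside ARMT1, and the 3 most like it by each measure. The single transcripts of other members, the pathway genes whose groups lay apart by less, and the markers given singly were picked after their values were seen. The members and lists were chosen with earlier results of these data known.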

Additional observations from a re-analysis of the deposited data

How the results depend on the processing

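The ARMT1 log2 fold change stayed between 1.39 and 1.57 under 13 alternatives. No other member, pathway gene or gene beside ARMT1 passed the threshold of the study under any of 12 alternatives, and no other member had an adjusted p under 0.05. The log2 fold changes near 0 turned sign without single libraries: leaving out each in turn gave -0.047 to 0.048 for PARG, -0.074 to 0.034 for PARP1 and -0.11 to 0.12 for TNKS. MOCK 1 set most of 2 others: without it ADPRH went from -0.71 to -0.21 and MACROD1 from -0.38 to -0.14. With the most abundant transcript in place of the gene sum, ADPRH went to 0.19 and MACROD1 to 0.054. The count of other members' transcripts past the threshold ranged from 0 to 1 when a library was left out, and was 1, MACROD1-208, without MOCK 3. Replicate numbers did not pair the samples (correlations of same-numbered deviations 0.0159, 0.00487 and 0.0253). With the replicate block the ARMT1 value was 1.45, and all genes with an adjusted p under 0.05 went from 11 to 0, against 108 with DESeq2. Genes past the threshold of the study numbered 113 in the main fit, 263 with DESeq2 and 62 when genes averaging under 50 counts were dropped. Keeping rows without a gene gave 268. That number can include those rows themselves, so it is not a count of genes and is not comparable with the 113. Folds of ARMT1-203 and ARMT1-204 were not run across alternatives, since CYGB was at or near 0 for both. Depth limits MACROD2, ADPRH and the minor transcripts, where a few counts set the value.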
